A study of Mus musculus with 3 samples.

Results

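The 10 genes studied here are ones that are usually read as marks of immune cells were followed in tumour cells sorted to lack the pan-leukocyte protein CD45: the mast cell and basophil proteases Mcpt1, Mcpt2 and Mcpt8, the T cell receptor beta constant regions Trbc1 and Trbc2, the natural killer receptor Klra4, the T cell surface protein Cd7, the eosinophil-associated ribonuclease Ear1, the TNF superfamily ligand Tnfsf8 (CD30 ligand) and the macrophage receptor Trem2. They are 10 of the 28692 genes in the deposited matrix, and were chosen by their UMI counts in cells without a UMI of Ptprc, the gene of CD45, in this same matrix. All 10 symbols were found. Their levels by class are therefore given as a description, with no test.

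The samples were 3 pancreatic tumours of KPf/fC mice, 1 group with no untreated, wild-type or otherwise different group. KPC models develop pancreatic tumours through alleles switched by a pancreas-directed Cre recombinase, and all 3 tumours share this genotype. The labels give neither the age of the mice nor whether each tumour came from its own animal. The cells had been sorted as CD45-, CD31- and PDGFRa- and profiled with the 10x 3' method, which tags the 3' end of each captured transcript with a unique molecular identifier (UMI). Cells were put in classes by pairs of marker genes with at least 1 UMI each: epithelial (Epcam and Cdh1), fibroblast (Dcn and Col3a1), mural (Rgs5 and Higd1b), mesothelial (Upk3b and Lrrn4) and endothelial (Pecam1 and Cdh5). A class here is a tumour's cells with that pair and with no Ptprc UMI, and a tumour is the replicate.

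Of 19576 barcodes, 18990 passed the filters, 64 of them with a Ptprc UMI. The tumours held 1902, 1474 and 2946 epithelial, 1824, 1889 and 2181 fibroblast, 193, 128 and 253 mural, 226, 72 and 61 mesothelial and 186, 15 and 57 endothelial cells, and 805, 2190 and 1417 cells with none of the pairs. Total UMIs per epithelial sum were 15029403 to 25149818, and per mesothelial sum 551237 to 2373671. Of the 375 cells with the mesothelial pair, 364 also carried the fibroblast pair, so these double carriers were kept as mesothelial and left out of the fibroblasts, a choice made after the overlap was seen. Markers that the class rule did not use followed the labels: the summed level of 7 epithelial genes led by Krt18 was 9631 to 10640 CPM (UMI counts scaled to a common total, as is usual) in epithelial cells, against 638 to 1492 CPM in fibroblasts, and 5 mesothelial genes led by Msln summed to 2431 to 3886 CPM in mesothelial cells, against 302 to 746 CPM in epithelial cells. The mesothelial cells also held 2389 to 3602 CPM of the epithelial genes and 2425 to 2912 CPM of the fibroblast genes. In the fibroblasts of tumours 1, 2 and 3 the 6 fibroblast genes summed to 11514, 4191 and 12119 CPM, against 1963 to 3092 CPM in mural cells. The fibroblasts also held 1230 to 2481 CPM of the 6 mural genes, against 4747 to 7326 CPM in mural cells. Tumours shared 50 to 65 barcode sequences in pairs.

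As background, mast cells and basophils store chymase-type proteases in granules, and their genes lie beside those of cathepsin G and the granzymes in a cluster of serine proteases. The beta chain of the T cell receptor is made only after rearrangement of its locus and reaches the surface together with the alpha chain and the CD3 proteins. Klra genes encode Ly49 lectin-like receptors of natural killer cells, TREM2 and several activating receptors signal through the adaptor encoded by Tyrobp, and mesothelium is the keratin-positive lining of body cavities.

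Promoters of 2 pairs of members (250 bases before to 50 bases after the start, RefSeq, GRCm38.p6) are shown, each read 5′ to 3′ on the gene's strand: those of Mcpt1 (chr14:56017714-56018013, plus strand) and Mcpt8 (chr14:56085148-56085447, minus strand), proteases of 1 gene cluster, both high in epithelial cells, and those of Ear1 (chr14:43819590-43819889, minus strand) and Trem2 (chr17:48346151-48346450, plus strand), both high in mesothelial cells. Capitals mark TATAAA and the GATA-type letters AGATAA or TGATAA, searched on both strands.
Mcpt1: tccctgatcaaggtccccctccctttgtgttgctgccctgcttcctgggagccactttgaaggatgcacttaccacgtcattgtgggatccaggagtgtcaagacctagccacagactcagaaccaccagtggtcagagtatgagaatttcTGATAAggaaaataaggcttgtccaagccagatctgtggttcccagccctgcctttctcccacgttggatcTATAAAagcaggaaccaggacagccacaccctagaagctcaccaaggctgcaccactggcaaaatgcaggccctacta
Mcpt8: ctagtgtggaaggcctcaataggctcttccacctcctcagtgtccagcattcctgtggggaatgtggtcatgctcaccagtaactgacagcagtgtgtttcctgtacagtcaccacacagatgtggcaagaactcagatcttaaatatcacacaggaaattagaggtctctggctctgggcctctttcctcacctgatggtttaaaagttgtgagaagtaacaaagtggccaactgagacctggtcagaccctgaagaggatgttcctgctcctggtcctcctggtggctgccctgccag
Ear1: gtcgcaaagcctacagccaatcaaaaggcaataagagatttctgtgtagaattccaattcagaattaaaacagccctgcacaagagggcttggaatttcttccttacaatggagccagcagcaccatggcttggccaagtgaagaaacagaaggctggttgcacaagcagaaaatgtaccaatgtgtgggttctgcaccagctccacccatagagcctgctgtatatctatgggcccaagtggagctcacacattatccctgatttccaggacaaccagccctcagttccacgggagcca
Trem2: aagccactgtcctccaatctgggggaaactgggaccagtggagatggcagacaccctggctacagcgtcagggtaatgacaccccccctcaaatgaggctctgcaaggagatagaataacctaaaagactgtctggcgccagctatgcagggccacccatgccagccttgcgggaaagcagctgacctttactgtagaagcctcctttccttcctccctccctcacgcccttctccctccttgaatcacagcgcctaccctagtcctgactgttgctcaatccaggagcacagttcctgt

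The Mcpt1 promoter held TGATAA starting 99 bases and TATAAA starting 28 bases before the start of the gene. Neither was found in the windows of Mcpt8, Ear1 and Trem2, nor in those of Klra4 and Tnfsf8. Of 32851 mouse promoters in the same table, 13.6% held TATAAA and 18.6% held AGATAA or TGATAA on either strand, so such matches are common. The table gave no promoter for Mcpt2, Cd7, Trbc1 and Trbc2.

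Mcpt1, Mcpt2 and Mcpt8 were highest in epithelial cells among the 5 classes in every tumour. Mcpt1, a chymase-like protease of mucosal mast cells, stood at 98.4, 47.0 and 53.3 CPM in the epithelial cells of tumours 1, 2 and 3, against 52.4, 2.45 and 3.72 CPM in fibroblasts and 0.911, 1.28 and 0 CPM in mural cells. Mcpt2, its close relative in mucosal mast cells, stood at 146, 70.0 and 127 CPM in epithelial cells, against 35.8, 2.86 and 6.61 CPM in fibroblasts. Mcpt8, a protease of basophils, stood at 268, 163 and 50.7 CPM in epithelial cells, against 117, 6.65 and 6.11 CPM in fibroblasts. For each of the 3 genes the fibroblasts of tumour 1 were far above those of tumours 2 and 3, and the fibroblast value of tumour 1 reached into the epithelial range for Mcpt1 and Mcpt8 but not for Mcpt2. The means were 66.3 ± 28.0 CPM for Mcpt1, 114 ± 39.7 CPM for Mcpt2 and 161 ± 109 CPM for Mcpt8 in epithelial cells (SD, n = 3). Cells with none of the marker pairs held 162, 9.85 and 32.3 CPM of Mcpt1 and 476, 29.3 and 40.9 CPM of Mcpt8, in tumour 1 more than the epithelial cells did.

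**Figure D1:**
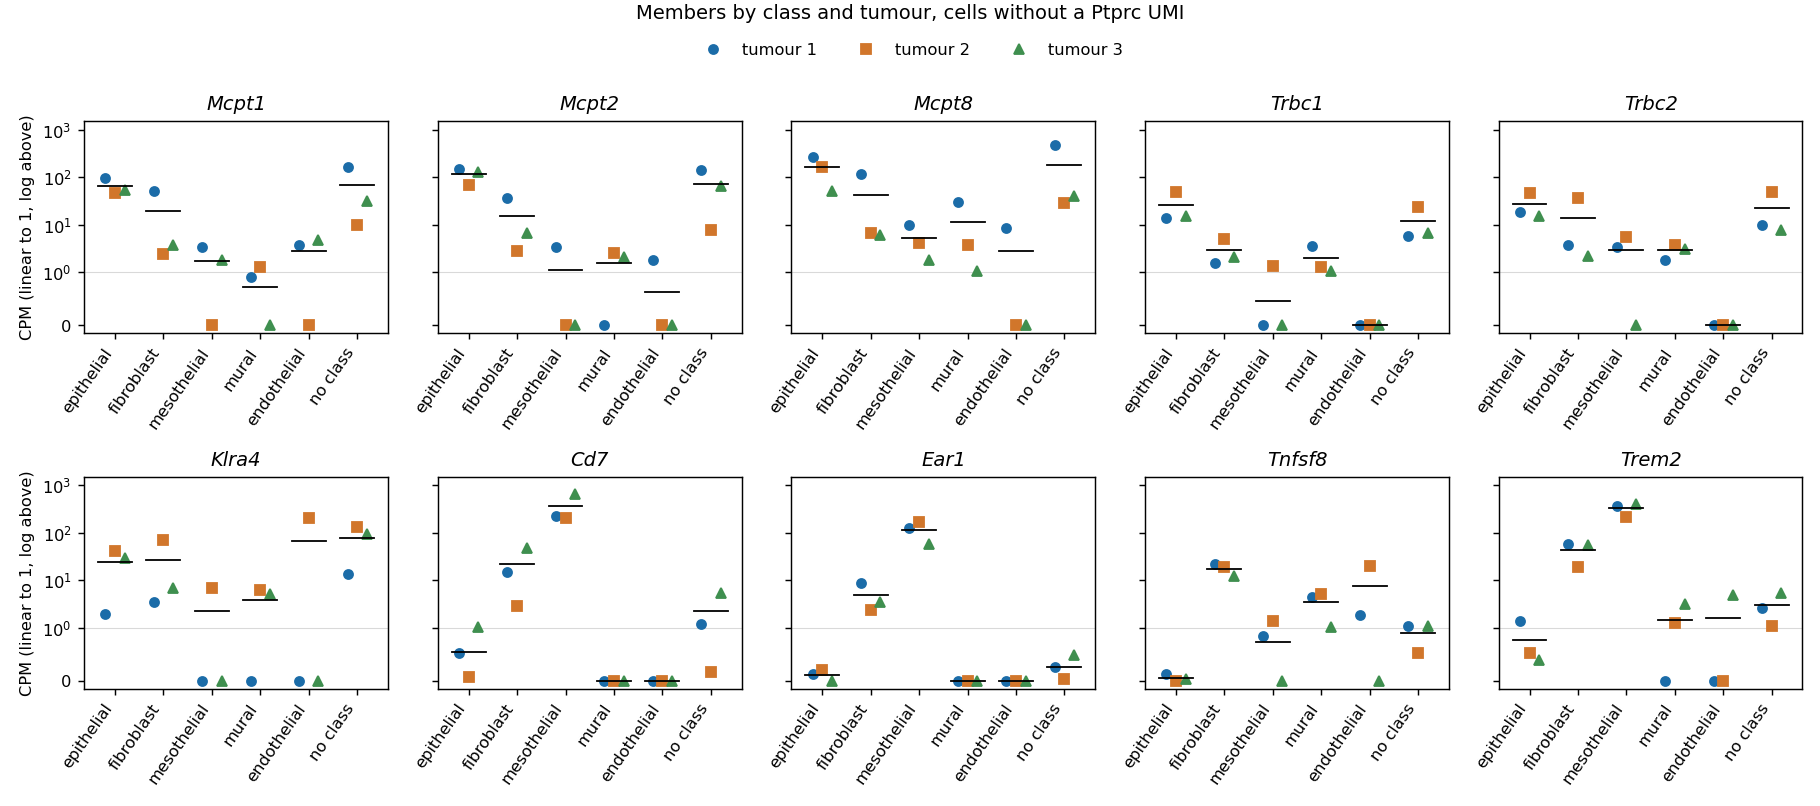
Levels of the 10 genes in CPM (vertical axis, linear up to 1 and logarithmic above) by class, 1 point per tumour, with a bar for the mean of the 3 tumours. Mcpt1, Mcpt2, Mcpt8 and Trbc1 are highest in epithelial cells among the 5 classes, Cd7, Ear1 and Trem2 in mesothelial cells (Trem2 at 217 to 401 CPM there), and Klra4 in epithelial cells is at 41.6 and 29.1 CPM in tumours 2 and 3 and at 1.94 CPM in tumour 1.

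The protease UMIs were concentrated in some of the epithelial cells. With each cell thinned to 3000 UMIs, so that depth was equal, Mcpt1 was seen in 13.4%, 7.67% and 9.46% of epithelial cells of tumours 1, 2 and 3, Mcpt2 in 20.2%, 11.2% and 16.01%, and Mcpt8 in 16.5%, 15.1% and 6.44%. Cells under 3000 UMIs were left out of all thinned values, and only tumour 3 had them. There they were 91 of 2946 epithelial, 333 of 2181 fibroblast, 105 of 253 mural and 29 of 57 endothelial cells. Thinned mural cells gave 0.518%, 0.781% and 0% for Mcpt1 and 3.11%, 1.56% and 0% for Mcpt8. Unthinned, the mural cells of tumours 1, 2 and 3 held 30.1, 3.84 and 1.06 CPM of Mcpt8. In tumour 1 a single mural cell held 25 of its 33 UMIs. Before thinning, Mcpt1 was seen in 26.7%, 16.01% and 16.7% of epithelial cells, at median depths of 10575.5, 8955.5 and 7711.5 UMIs, against mural medians of 5135, 5354 and 3251 UMIs. The 10% of epithelial cells richest in Mcpt8 held 87.4%, 83.9% and 94.0% of its UMIs, and a single epithelial cell held up to 179 of them. In the same way the richest 10% held 81.0% to 87.6% of the Mcpt1 UMIs and 70.2% to 85.6% of the Mcpt2 UMIs.

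The 3 proteases did not keep a fixed proportion. Epithelial cells held 2.73, 3.47 and 0.951 UMIs of Mcpt8 per UMI of Mcpt1 in tumours 1, 2 and 3, and 1.49, 1.49 and 2.38 UMIs of Mcpt2 per UMI of Mcpt1. Tumour 3 was thus the lowest in Mcpt8 and the highest in Mcpt2 relative to Mcpt1. Among thinned epithelial cells with Mcpt1, Mcpt2 was also seen in 53.1%, 40.7% and 52.6%, against 15.1%, 8.74% and 12.2% of those without Mcpt1. Mcpt8 was seen in 28.7% and 33.6% of the Mcpt1 carriers of tumours 1 and 2, against 14.6% and 13.6% of the other cells, but in 4.44% of the Mcpt1 carriers of tumour 3, against 6.65% of its other cells. Mcpt1 and Mcpt2 carriage thus coincided in all tumours, while Mcpt1 and Mcpt8 coincided in 2 of 3. The last 500 bases of the Mcpt1, Mcpt2 and Mcpt8 transcripts shared no stretch of 50 bases with a transcript of another gene (GENCODE M21), and those of Mcpt1 and Mcpt2 were 65.8% identical when aligned.

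The genes next to them in the protease cluster were mostly silent. In RefSeq order the protein-coding genes run Cma1, Cma2, Mcpt1, Mcpt2, Mcpt9, Mcpt4, Mcpt8, Ctsg, Gzme and on through other granzymes. All epithelial cells together held 4281 UMIs of Mcpt1, 7563 of Mcpt2 and 9815 of Mcpt8, but 1 of Cma1 (mast cell chymase), 1 of Cma2, 6 of Mcpt9, 87 of Mcpt4 and 2 of Ctsg (cathepsin G). Gzme, a granzyme, was the exception with 1483 UMIs, and its neighbours Gzmd, Gzmg and Gzmn had 17, 28 and 4. Gzme stood at 29.2, 25.0 and 17.8 CPM in the epithelial cells of tumours 1, 2 and 3, against 9.27, 3.20 and 1.75 CPM in fibroblasts, a log2 fold change of 2.52 ± 0.35 (SE; higher in 3 of 3 tumours; edgeR quasi-likelihood test, Benjamini-Hochberg adjusted p = 0.0028). Gzme also rose in epithelial cells against mural cells (4.64 ± 0.56, edgeR adjusted p = 7.9e-05). Against mesothelial cells, where no tumour had a Gzme UMI, it passed the test too (edgeR adjusted p = 2.3e-06). The edgeR calls made up 37.3% of the genes tested against fibroblasts (16% higher and 21.2% lower in epithelial cells). Against mural cells they made up 41.3% (23.2% higher, 18.1% lower) and against mesothelial cells 40.2% (21.3% higher, 18.9% lower). A call on its own is thus common here. These shares are over all genes without the class markers and Ptprc, and the members were not left out. Gzmc, another granzyme, fell in epithelial cells against fibroblasts, with 0.0441, 0.133 and 0.0797 CPM against 2.85, 0.927 and 3.84 CPM.

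The defining genes of mast cells and basophils were at or near 0. In all epithelial cells together Fcer1a and Ms4a2 (chains of the high-affinity IgE receptor), Tpsb2 and Tpsab1 (tryptases), Prss34 and Mrgprb1 had 0 UMIs, and Cpa3 (mast cell carboxypeptidase) had 1. Of the 17 genes of the mast cell and basophil list, 14 had 10 or fewer UMIs there, and the list summed to 7.52 to 9.74 CPM in epithelial cells and 27.2 to 34.5 CPM in mesothelial cells. Kit, a receptor that epithelial stem and progenitor cells also use, led the list in epithelial cells at 6.44, 5.33 and 5.38 CPM, and was higher there than in fibroblasts (0.389, 0.510 and 1.503 CPM; log2 fold change 2.91 ± 0.49, edgeR adjusted p = 0.0055). Mural cells had no Kit UMI in any tumour (edgeR adjusted p = 0.0031 for epithelial against mural cells). Kit was also higher than in mesothelial cells (edgeR adjusted p = 0.0023), a call that ended without tumour 1 (adjusted p = 0.088). Hdc, the enzyme that makes histamine, fell in epithelial cells against mesothelial cells, at 0.0441, 0.133 and 0.120 CPM against 28.5, 25.1 and 20.2 CPM (log2 fold change -7.90 ± 0.53, edgeR adjusted p = 1.9e-08). Against fibroblasts 4 of the 17 genes were tested: Kit was higher, Hdc and the interleukin-33 receptor Il1rl1 were lower, and the list's median log2 fold change was -1.67, against -0.042 over all genes tested. Against mesothelial cells 3 were tested, Kit higher and Hdc and Cd200r3 lower, and against mural cells only Kit was.

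**Figure D2:**
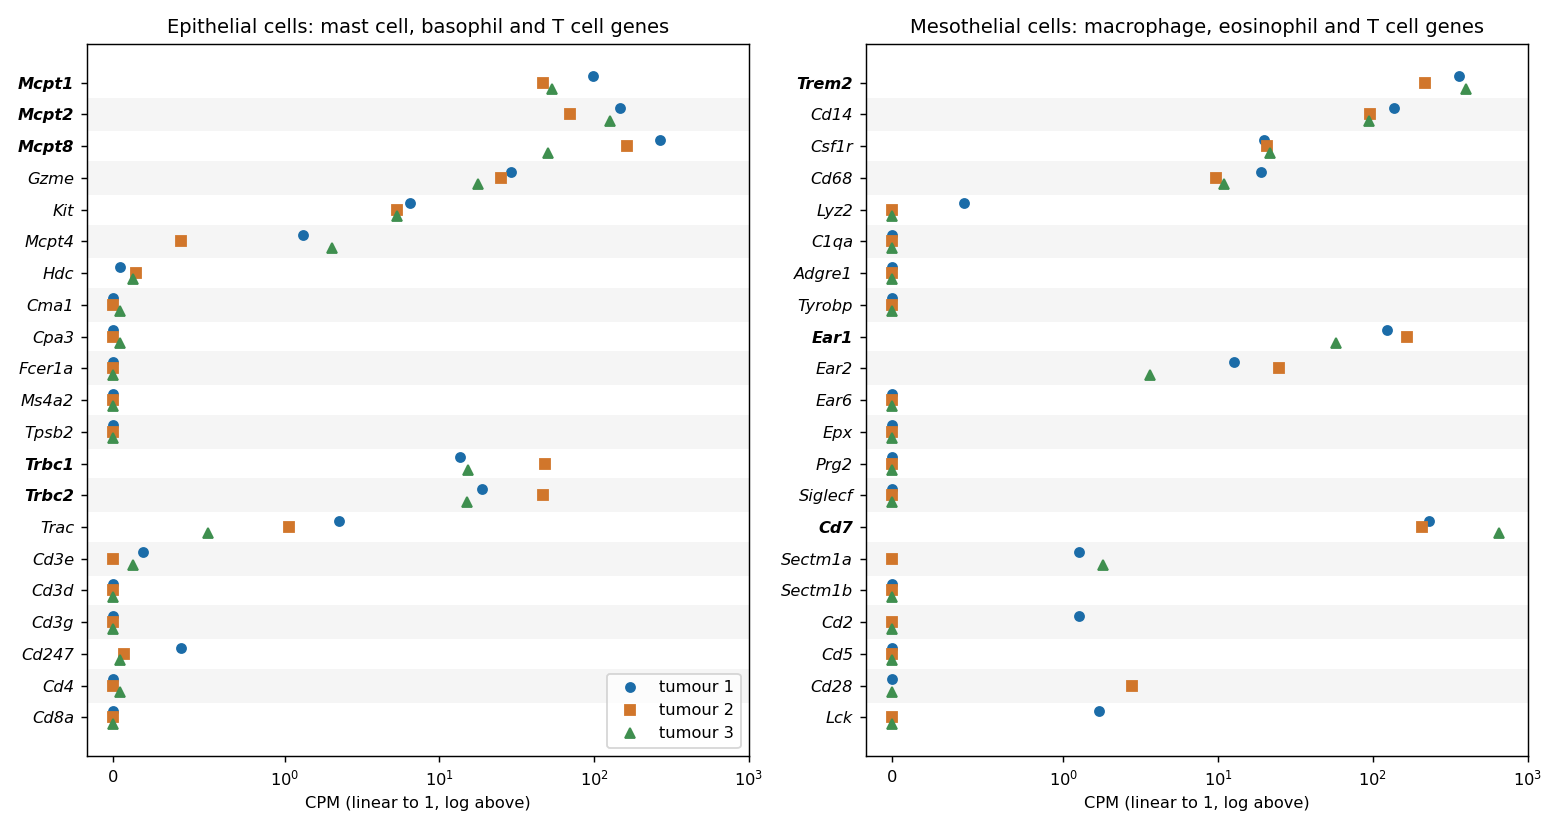
Levels in CPM (horizontal axis, linear up to 1 and logarithmic above), 1 point per tumour, of members (bold) and other genes of the same lineages in epithelial cells (left) and mesothelial cells (right). In epithelial cells Mcpt1, Mcpt2, Mcpt8, Trbc1 and Trbc2 stand at 13.7 CPM or above in every tumour while Fcer1a, Ms4a2, Tpsb2, Cd3d, Cd3g and Cd8a are at 0, and in mesothelial cells Trem2, Ear1 and Cd7 are high while Tyrobp, Adgre1, C1qa, Epx and Prg2 are at 0.

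Epithelial cells with a protease UMI were set against those without. After thinning, 676, 407 and 735 cells of tumours 1, 2 and 3 carried Mcpt1, Mcpt2 or Mcpt8, against 1226, 1067 and 2120 other epithelial cells. Of 10299 genes tested with edgeR, with the tumour as block and the 3 proteases left out, 246 passed (2.39%), 111 higher (1.08%) and 135 lower (1.31%) in carriers. The carriers had more Gkn1 (1306, 930 and 1146 CPM, against 395, 342 and 109 CPM in other cells) and Gkn2 (898, 479 and 472 CPM, against 244, 222 and 34.4 CPM), the gastrokines of stomach surface cells. The trefoil factor Tff2 was at 7034, 6976 and 8017 CPM in carriers, against 3086, 2064 and 2064.5 CPM in other cells, and the secreted mucin Muc5ac at 18.3, 13.97 and 56.4 CPM, against 3.27, 6.26 and 19.9 CPM. Each of these genes was higher in carriers in 3 of 3 tumours, which the rule for naming genes required. For Gkn1, Gkn2 and Tff2 the carriers and the other cells did not overlap over all tumours. The share of all tested genes without such overlap was not counted.

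The log2 fold changes of these genes were 2.20 ± 0.23 for Gkn1, 2.21 ± 0.28 for Gkn2, 1.66 ± 0.11 for Tff2, 1.66 ± 0.21 for Muc5ac and 1.44 ± 0.18 for Tff1 (SE; edgeR adjusted p = 0.00011 or less for each). Gzme, from the same gene cluster as the proteases, stood at 65.3, 78.9 and 35.5 CPM in carriers, against 5.99, 6.57 and 10.7 CPM in other cells, a rise of 2.78 ± 0.25 on the log2 scale (edgeR adjusted p = 1.4e-06). The unnamed transcript Gm26870 (2.83 ± 0.28), the neuropeptide Npy (1.94 ± 0.09), the quinone reductase Nqo1 (2.02 ± 0.32) and the phospholipase Pla2g10 (1.33 ± 0.30) were the other leading genes, together with Klrc1, an NKG2 receptor of natural killer cells (1.61 ± 0.38, edgeR adjusted p = 0.026, on 37 UMIs in carriers and 29 in other cells). The Klrc1 call ended without tumour 1 (adjusted p = 0.11) and without tumour 3 (0.074), and at 5000 UMIs per cell (0.063), and the Pla2g10 call ended without tumour 1 and at 5000 UMIs. Among the other members, Trbc1 was at 20.8, 77.2 and 28.7 CPM in protease carriers, against 7.36, 37.9 and 8.20 CPM in other cells (log2 fold change 1.39 ± 0.18, edgeR adjusted p = 0.00014). Trbc2 (0.54 ± 0.18, adjusted p = 0.15) and Klra4 (0.67 ± 0.21, adjusted p = 0.11) did not pass. For Trbc2 the adjusted p was 0.02 without tumour 3, and for Klra4 it was 0.046 without tumour 2 and 0.027 at 5000 UMIs.

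**Figure D3:**
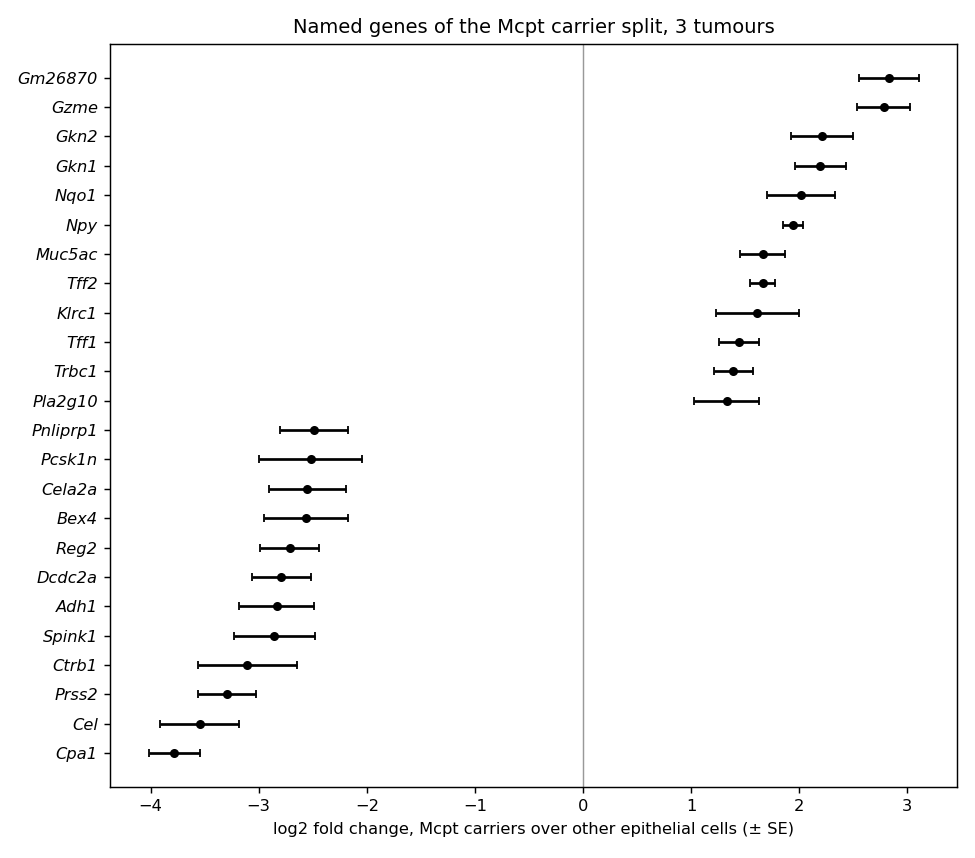
Log2 fold change (horizontal axis) of the 12 highest and 12 lowest genes in epithelial carriers of Mcpt1, Mcpt2 or Mcpt8 over other epithelial cells, with SE bars, from sums of 3 tumours. The gastrokines, trefoil factors and Gzme lie to the right (Gzme at 2.78), and acinar enzymes lie to the left, down to -3.78 for Cpa1.

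Several of the 12 lowest genes in protease carriers encode enzymes that pancreatic acinar cells make. Cpa1, a pancreatic carboxypeptidase, was at 18.3, 0 and 2.73 CPM in carriers, against 172, 3.44 and 109 CPM in other epithelial cells (log2 fold change -3.78 ± 0.24, edgeR adjusted p = 7.5e-09). The lipase Cel, the trypsinogen Prss2, the chymotrypsinogen Ctrb1, the trypsin inhibitor Spink1, Reg2, the elastase Cela2a and the lipase-related Pnliprp1 fell by 2.49 to 3.54 on the log2 scale. The other 4 of the 12 lowest were Adh1, an alcohol dehydrogenase, Dcdc2a, Bex4 and Pcsk1n. These genes were low in tumour 2 on both sides, with 3.44 CPM of Cpa1 in its other cells. DESeq2 called 46 genes in place of 246, and Cel, Ctrb1, Spink1, Reg2, Bex4, Cela2a, Pnliprp1, Gkn2 and Tff1 were not among them. Without the tumour as block, edgeR called 0 genes (148 at an unadjusted p under 0.05).

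Few genes of the lists passed in the protease carriers. Of the 7 epithelial genes, Lcn2, an iron-binding defence protein, fell by 1.88 on the log2 scale and Cldn4, a claudin, by 0.54, while the keratin Krt7 rose by 0.34. No gene of the 2 tested from the haematopoietic list, of the 2 tested T cell genes or of the 1 tested mast cell gene (Kit) passed, and of the 2 macrophage genes tested Cd14 fell by 0.58. Of the 4 TNF ligands tested Ltb, a lymphotoxin chain, fell by 1.62. The Cldn4, Krt7, Ltb and Cd14 calls were each lost with DESeq2 or without tumour 1. The summed haematopoietic genes were 36.5, 22.9 and 23.1 CPM in protease carriers, against 31.3, 30.0 and 18.6 CPM in other epithelial cells.

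In fibroblast-pair cells the protease carriers held more epithelial RNA. After thinning, 154, 48 and 37 fibroblast-pair cells of tumours 1, 2 and 3 carried a protease UMI. Their 7 epithelial genes summed to 3318, 2194 and 1739 CPM, against 733, 716 and 489 CPM in the other fibroblast-pair cells. They also held less of the fibroblast genes, 7645, 5243 and 10658 CPM against 13737, 5804 and 12295 CPM. The part of these differences in the fibroblast levels of Mcpt1, Mcpt2 and Mcpt8 was not tested.

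Among the 5 classes Trbc1 and Trbc2 were highest in epithelial cells, and tumour 2 led for both. Trbc1 stood at 13.7, 48.6 and 15.3 CPM in the epithelial cells of tumours 1, 2 and 3, against 1.54, 5.08 and 2.06 CPM in fibroblasts and 3.64, 1.28 and 1.06 CPM in mural cells. Epithelial and fibroblast values of Trbc1, a gene chosen by counts in these cells, did not overlap, and the share of all genes without overlap was not counted. Trbc2 stood at 18.9, 47.0 and 15.1 CPM in epithelial cells, against 3.78, 36.7 and 2.23 CPM in fibroblasts, so that in tumour 2 the fibroblast-pair cells came near the epithelial cells. Per UMI of Trbc1 there were 1.38, 0.967 and 0.990 UMIs of Trbc2 in epithelial cells, but 2.46, 7.22 and 1.08 in fibroblasts, and 2.06 in the cells of tumour 2 without a class. Those cells held 49.98 CPM of Trbc2, slightly above the epithelial cells of that tumour, and 24.2 CPM of Trbc1. Endothelial cells had no UMI of either gene, which at 3 counts allows up to 2.79, 30.8 and 14.6 CPM in tumours 1, 2 and 3.

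Both constant regions were carried by few cells, and partly by the same ones. After thinning, Trbc1 was seen in 2.42%, 7.46% and 2.17% of epithelial cells and Trbc2 in 5.73%, 9.91% and 3.54%, against 1.04%, 0.781% and 0% and 0.518%, 0.781% and 1.35% of mural cells. The epithelial values of Trbc1 in tumours 1 and 3 lie close to the mural ones and rest on 46 and 62 cells. Trbc2 was seen in 39.1%, 40.0% and 33.9% of epithelial cells with Trbc1, against 4.90%, 7.48% and 2.86% of those without. Of the stretches of 50 bases in the last 500 bases of Trbc1, 60.1% also occurred in Trbc2, and 20.2% of those of Trbc2 in Trbc1, so reads of the 2 genes may not have been separated fully and their overlap is uncertain.

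The T cell receptor complex was not seen with them. All epithelial cells together had 0 UMIs of Cd3d and Cd3g, 7 of Cd3e, 11 of Cd247, 0 of Cd8a and 1 of Cd4, against 1426 of Trbc1 and 1517 of Trbc2. Trac, the alpha chain constant region, was at 2.25, 1.07 and 0.558 CPM in epithelial cells, against 19.3, 22.0 and 11.7 CPM in mural cells (log2 fold change -3.74 ± 0.46, edgeR adjusted p = 8.9e-05). The most abundant gene of the T cell list in epithelial cells was Bcl11b, a transcription factor that skin and other epithelia also use, at 16.8, 17.7 and 2.15 CPM. It was higher than in mural, fibroblast and mesothelial cells (log2 fold changes 3.15 ± 0.58, 1.85 ± 0.44 and 4.67 ± 0.66, edgeR adjusted p = 0.0014, 0.02 and 4.4e-05). Of the list's 17 genes 3, 4 and 2 were tested against mural, fibroblast and mesothelial cells. Apart from Bcl11b and Trac none of them passed.

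Trbc carriers differed more widely from other epithelial cells than protease carriers did in number of genes called, though the 2 splits were not compared by a test. They were 137, 212 and 142 cells, and 1140 of 10048 genes passed in edgeR (11.3%), 531 higher (5.28%) and 609 lower (6.06%). The named genes that rose were Tmprss11e, a transmembrane protease (2.86 ± 0.59), Pthlh, the parathyroid hormone-like hormone (2.76 ± 0.33), the matrix protein Tnc (2.63 ± 0.26), Apol9a (2.53 ± 0.48) and the casein Csn3 (2.50 ± 0.47). Pthlh stood at 34.2, 120 and 63.7 CPM in Trbc carriers, against 11.2, 17.2 and 3.45 CPM in other epithelial cells. Tnc stood at 271, 101 and 316 CPM, against 33.9, 37.8 and 27.8 CPM. Carriers and other cells did not overlap for Tnc and Pthlh, and the share of all tested genes without overlap was not counted. The 5 lowest genes had no UMI in carriers. With counts pooled over the tumours and 3 counts set for all carriers, Lypd8 was at least 33.1-fold and Myo15b at least 6.21-fold lower. Adh1 was at least 5.33-fold, Oasl1 at least 4.93-fold and Clca1, a goblet cell protein, at least 3.36-fold lower. These pooled limits are not limits within a tumour, since the tumours had unlike shares of the carriers and of the other cells. The Tmprss11e call ended without tumour 1 (adjusted p = 0.099), the Csn3 call without tumour 3 (0.31) and the Lypd8 call with DESeq2 (0.11).

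The basophil protease rose with the Trbc genes and the mucosal mast cell proteases did not. Mcpt8 was at 391, 412 and 163 CPM in Trbc carriers, against 191, 104 and 30.9 CPM in other epithelial cells (log2 fold change 1.66 ± 0.20, higher in 3 of 3 tumours, edgeR adjusted p = 4e-05). Mcpt2 was at 107, 64.6 and 44.8 CPM in Trbc carriers, against 141, 77.5 and 125 CPM (-0.73 ± 0.20, lower in 3 of 3, edgeR adjusted p = 0.027), a call that ended without tumour 3 (adjusted p = 0.28) and with DESeq2 (0.094). Mcpt1 was at 73.3, 67.8 and 14.2 CPM, against 86.1, 41.3 and 56.4 CPM (-0.26 ± 0.29, edgeR adjusted p = 0.66), and passed as lower without tumour 2 (adjusted p = 0.0099). Klra4 was at 0, 88.3 and 61.3 CPM in Trbc carriers, against 0.757, 20.6 and 20.6 CPM (1.74 ± 0.27, edgeR adjusted p = 0.00046), higher in 2 of 3 tumours. Gzme rose with the Trbc genes too, with 75.7, 63.1 and 73.1 CPM in carriers, against 23.3, 20.4 and 14.2 CPM (1.79 ± 0.21, edgeR adjusted p = 4.2e-05). Of the epithelial genes Cldn4, Krt7 and Krt8 rose and Lcn2 fell. Of the other lists only Cd14 passed, lower by 0.77 on the log2 scale. DESeq2 called 528 genes and edgeR without the tumour as block 3.

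**Figure D4:**
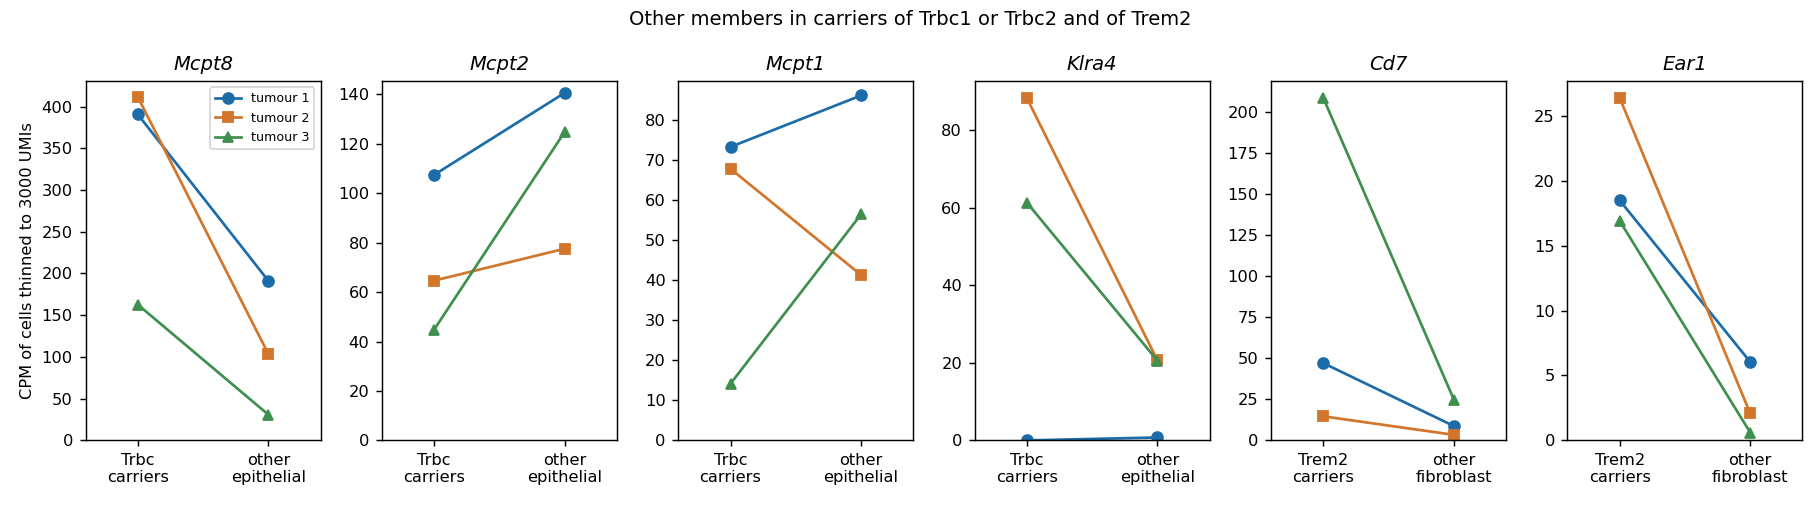
CPM (vertical axis, linear, from 0, each panel with its own scale) of other members in carriers of Trbc1 or Trbc2 against other epithelial cells (4 panels) and in carriers of Trem2 against other fibroblast-pair cells (2 panels), cells thinned to 3000 UMIs, lines joining the 2 sides of a tumour. Mcpt8 is higher in Trbc carriers in all tumours and Mcpt2 lower, and Cd7 and Ear1 are higher in Trem2 carriers in all tumours.

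Klra4 varied widely by tumour and by class. It stood at 1.94, 41.6 and 29.1 CPM in the epithelial cells of tumours 1, 2 and 3, at 3.46, 70.0 and 6.77 CPM in fibroblasts and at 13.7, 132 and 92.4 CPM in cells with none of the marker pairs. Tumour 1 was the lowest in each of these and tumour 2 the highest. Mural cells held 0, 6.41 and 5.28 CPM and mesothelial cells 0, 6.90 and 0 CPM. Without tumour 2 the fibroblast mean was 5.12 CPM. The order of the class means, 79.3 ± 60.2 CPM in cells of no class, 26.7 ± 37.5 CPM in fibroblasts and 24.2 ± 20.3 CPM in epithelial cells (SD, n = 3), is within the spread between tumours. The endothelial value of tumour 2, 205 CPM, rests on 15 cells and 20 UMIs, 19 of them in 1 cell, and the endothelial cells of tumours 1 and 3 had none. After thinning, Klra4 was seen in 23.0% of the cells of no class of tumour 2 (exact Clopper-Pearson 95% interval 21.2% to 24.8%), in 10.9% of its fibroblasts and in 6.38% of its epithelial cells, against 2.34% of its mural cells. In tumour 2 the fibroblast-pair cells with Klra4 had 1587 CPM of the fibroblast genes and 1141 CPM of the epithelial genes, against 6304 and 706 CPM in those without it.

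Other Ly49 receptors were scarce or absent beside it. All 5 classes together had 17 UMIs of Klra1 and at most 1 each of Klra3, Klra7, Klra8 and Klra9. Ncr1, Nkg7, Gzma and Prf1, which mark natural killer cells or arm them, had 0. None of the 15 natural killer genes had enough counts to be tested against mural, fibroblast or mesothelial cells. The most abundant in epithelial cells was Hcst at a mean of 0.379 CPM. In cells of no class, which held 4092 UMIs of Klra4, the 15 genes summed to 0.536 to 1.31 CPM, led by Klra1 at a mean of 0.217 CPM. Of the stretches of 50 bases in the last 500 bases of Klra4, 4.66% also occurred in Klra1. No class had 50 Klra4 carriers in every tumour, so carriers were not tested.

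Cd7, Ear1 and Trem2 shared the mesothelial class. Cd7, a surface protein of T and natural killer cells, stood at 229, 207 and 657 CPM in the mesothelial cells of tumours 1, 2 and 3, against 14.9, 2.91 and 47.0 CPM in fibroblasts and 0.529, 0.0665 and 1.03 CPM in epithelial cells. Ear1, a ribonuclease of eosinophil granules, stood at 123, 167 and 58.1 CPM, against 8.91, 2.36 and 3.47 CPM in fibroblasts and 0.132, 0.1996 and 0 CPM in epithelial cells. Trem2, the lipid-binding receptor of macrophages and microglia, stood at 363, 217 and 401 CPM, against 58.1, 18.7 and 54.3 CPM in fibroblasts and 1.41, 0.532 and 0.398 CPM in epithelial cells. For all 3 genes the mesothelial, fibroblast and epithelial values of the 3 tumours did not overlap. These 3 genes were chosen by counts in these same cells, and the share of all genes without overlap was not counted. Tumour 3 was the highest for Cd7 and the lowest for Ear1. Within a tumour the mesothelial level over the fibroblast level was 13.98-fold to 71.2-fold for Cd7, 13.9-fold to 70.9-fold for Ear1 and 6.25-fold to 11.6-fold for Trem2. Mural and endothelial cells had no UMI of Cd7 or Ear1, and mesothelial Cd7 was at least 53.9-fold to at least 207-fold above mural cells when those are set to 3 counts per tumour.

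The 3 genes were spread differently over the mesothelial cells. After thinning, Cd7 was seen in 44.2%, 36.1% and 75.0% of mesothelial cells of tumours 1, 2 and 3, Trem2 in 50.4%, 33.3% and 50% (30 of 60 cells), and Ear1 in 16.8%, 18.1% and 11.7%. Thinned epithelial cells gave at most 0.263% for Cd7, 0.0678% for Ear1 and 0.421% for Trem2. The richest 10% of the mesothelial cells held 35.1% to 45.0% of the Cd7 UMIs and 43.8% to 52.9% of the Trem2 UMIs, but 80.2% to 90.6% of the Ear1 UMIs, so Ear1 lay in few of them. Trem2 was seen in 54.0%, 26.9% and 51.1% of the mesothelial cells with Cd7, against 47.6%, 37.0% and 46.7% of those without. The share with Trem2 was thus higher in Cd7 carriers in tumours 1 and 3 and lower in tumour 2, on 100, 26 and 45 Cd7 carriers. No class had 50 carriers and 50 other cells of Cd7 or Ear1 in every tumour, so no split of either was tested.

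Several genes that accompany these 3 in immune cells had no UMI in mesothelial cells, and others were present. Tyrobp, the adaptor of TREM2, had no UMI in any tumour, and Adgre1, C1qa, C1qb, C1qc, Cd163 and Fcgr1 had none either. Lyz2 had 1 UMI, against 1095, 741 and 2.63 CPM in the 13, 13 and 38 cells with a Ptprc UMI, which also held 7756 to 8534 CPM of the epithelial genes and so were not purely immune. Csf1r, the receptor that macrophages need, was at 0.750, 0.467 and 0.239 CPM in epithelial cells, against 20.02, 20.9 and 22.1 CPM in mesothelial cells. Of the macrophage list 4 genes were tested in epithelial against mesothelial cells, Csf1r (-5.45 ± 0.47, edgeR adjusted p = 3.5e-07) and Cd68 (-1.31 ± 0.36, adjusted p = 0.0094) were lower in epithelial cells and none was higher, with a median of -1.49 against 0.12 over all genes. The Cd68 call ended without tumour 1 (adjusted p = 0.34). The list's most abundant gene was Cd14, at 100.6 CPM in epithelial and 108.7 CPM in mesothelial cells on average. Of the TREM family, Treml1 was the most abundant at 7 mesothelial UMIs, and none of the 5 genes could be tested.

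For Ear1 the related genes behaved unevenly. Ear2, the nearest relative in the list, was at 0.132, 0 and 0 CPM in epithelial cells, against 12.8, 25.1 and 3.68 CPM in mesothelial cells (log2 fold change -7.72 ± 0.77, edgeR adjusted p = 1.4e-06). Ear6, Ear14, Epx and Ccr3 had no UMI in the 5 classes, and Siglecf had 2. Of the stretches of 50 bases in the last 500 bases of Ear1, 58.1% also occurred in Ear2, Ear6, Ear10 or a pseudogene, so the counts of Ear1 and Ear2 are uncertain as to which gene gave them. Of the genes listed as partners of members, Sectm1a, a relative of SECTM1, the CD7 ligand known from human, was at 0.132, 0 and 0.0399 CPM in epithelial cells, against 11.4, 1.71 and 8.44 CPM in fibroblasts (log2 fold change -6.88 ± 0.48, edgeR adjusted p = 0.00031). It had 4 UMIs in all mesothelial cells.

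Fibroblast-pair cells with Trem2 carried mesothelial genes and the other 2 mesothelial members. Of the 375 cells with the mesothelial pair 364 also carried the fibroblast pair. Mesothelial cells without a UMI of Upk3b or Lrrn4 can therefore be among the fibroblast-pair cells, and their share was not counted. Of the fibroblast-pair cells, from which cells with the mesothelial pair had been left out, 201, 115 and 180 carried Trem2 after thinning, and 179 of 10500 genes passed (1.7%), 135 higher (1.29%) and 44 lower (0.419%). Cd7 was at 47.1, 14.7 and 209 CPM in Trem2 carriers, against 8.75, 3.40 and 24.9 CPM in other fibroblast-pair cells (log2 fold change 2.76 ± 0.26, edgeR adjusted p = 8.2e-05). Ear1 was at 18.5, 26.4 and 16.9 CPM, against 6.04, 2.08 and 0.606 CPM (2.91 ± 0.57, edgeR adjusted p = 0.018, on 29 and 43 UMIs). Both were higher in Trem2 carriers in 3 of 3 tumours. Cd7, Ear1 and Trem2 were all chosen by counts in these same cells, so these tests are not independent of that choice. Of the 5 mesothelial genes 4 were tested and all 4 rose: Nkain4 by 2.70 ± 0.23, Wt1, a transcription factor of mesothelium, by 1.73 ± 0.25, Upk1b by 1.58 ± 0.34 and Msln, mesothelin, by 1.56 ± 0.22, beside a median of -0.031 over all genes. The summed mesothelial genes were 546, 435 and 743 CPM in Trem2 carriers, against 194, 77.4 and 215 CPM in other fibroblast-pair cells. The part of mesothelial cells in the rise of Cd7 and Ear1 was not tested.

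Other genes that rose with Trem2 were Crym (2.91 ± 0.60), Enpp2, the enzyme autotaxin (2.76 ± 0.19), and the galectin Lgals7 (2.72 ± 0.23). Enpp2 stood at 328, 220 and 274 CPM in Trem2 carriers, against 49.4, 34.0 and 38.8 CPM in other fibroblast-pair cells, with no overlap. Here too the share of all tested genes without overlap was not counted. The lowest were Col10a1 (-4.74 ± 0.56), the gut and islet hormones Pyy (-4.23 ± 0.59) and Ppy (-4.04 ± 0.56), Fermt1 (-4.07 ± 0.92) and Ambp (-3.21 ± 0.72), each on 4 or fewer UMIs in carriers. Kcnj8 of the mural list, Kdr of the endothelial list, Arhgdib of the haematopoietic list, Hdc and Cd14 rose as well. Of these, Kdr, Hdc and Cd14 averaged 55.9, 24.3 and 108.7 CPM in mesothelial cells, against 10.7, 10.9 and 19.2 CPM in fibroblasts. Tnfsf8 did not differ beyond error (0.00 ± 0.34, edgeR adjusted p = 1), and Mcpt8 was lower without passing (-2.86 ± 0.68, adjusted p = 0.055). Mcpt8 passed without tumour 2, where the number of calls was 617, and without the filter on low counts. The calls of Crym, Hdc, Arhgdib, Kcnj8, Upk1b, Cd14, Fermt1 and Ambp ended without tumour 1, and those of Pyy and Ppy with DESeq2, which called 129 genes. Without the tumour as block edgeR called 2.

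Tnfsf8 was the member of fibroblasts. It stood at 21.8, 18.9 and 12.6 CPM in the fibroblasts of tumours 1, 2 and 3, against 4.56, 5.13 and 1.06 CPM in mural cells, 0.843, 1.38 and 0 CPM in mesothelial cells and 0.132, 0 and 0.0398 CPM in epithelial cells. Fibroblast values of Tnfsf8, a gene chosen by counts in these cells, overlapped with no other of these classes. The share of all genes without such overlap was not counted. The endothelial value of tumour 2, 20.5 CPM, rests on 2 UMIs. After thinning, Tnfsf8 was seen in 5.37%, 5.03% and 3.14% of fibroblasts, against 0.105%, 0% and 0.0350% of epithelial cells. Its receptor gene Tnfrsf8 (CD30) had 6 UMIs in the 5 classes together. Cells with a Ptprc UMI had none of Tnfsf8, Cd7 or Ear1. These 64 cells did hold 62 UMIs of Mcpt1, 85 of Mcpt2, 105 of Mcpt8, 7 of Trbc1, 14 of Trbc2, 32 of Klra4 and 13 of Trem2. Their means were 102 ± 117 CPM for Mcpt1, 140 ± 179 CPM for Mcpt2 and 195 ± 171 CPM for Mcpt8 (SD, n = 3). As given above, they were not purely immune.

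The 16 other TNF superfamily ligands were split between the classes. Tnf and Ltb, the secreted and membrane ligands of inflammation, were higher in epithelial cells than in fibroblasts, with Ltb at 16.9, 12.6 and 5.38 CPM against 1.43, 0.788 and 0.752 CPM (log2 fold change 3.45 ± 0.30, edgeR adjusted p = 0.00058) and Tnf rising by 3.66 ± 0.53 (adjusted p = 0.0032). Tnfsf18, Tnfsf11 (RANK ligand), Tnfsf13b (BAFF), Tnfsf12 (TWEAK) and Tnfsf4 were lower in epithelial cells, so that of 9 tested 2 rose and 5 fell, with a median of -1.83. Tnfsf11 stood at 0.309, 0.2 and 0 CPM in epithelial cells, against 6.48, 6.54 and 1.92 CPM in fibroblasts (-5.00 ± 0.55, adjusted p = 0.0012). The Tnfsf4 call ended without any 1 of the tumours. Against mural cells 3 of 4 rose and 1 fell, and against mesothelial cells 3 of 5 rose and 2 fell. The most abundant ligand in epithelial cells was Tnfsf9 at a mean of 24.7 CPM.

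There were 98, 95 and 58 fibroblasts with Tnfsf8 after thinning, and 175 of 10329 genes passed (1.69%), 87 higher (0.842%) and 88 lower (0.852%). Of the 6 mural genes 2 rose, the contractile genes Tagln by 1.07 ± 0.19 and Acta2 by 0.90 ± 0.19, and Tagln stood at 1801, 1588 and 1039.5 CPM in Tnfsf8 carriers, against 954, 583 and 499 CPM in other fibroblasts. Among the leading genes were the kinesin Kif1a (2.41 ± 0.65), Jph2, a junctophilin (1.93 ± 0.52), Gdpd2 (1.87 ± 0.44) and Megf11 (1.83 ± 0.42), each on 25 or fewer carrier UMIs and each no longer called without at least 1 of the tumours. Dlk1, an inhibitor of fat cell differentiation, had no UMI in carriers and was at least 8.39-fold lower with counts pooled over the tumours. By the same pooled limit Car3, Tmem151a and Sema3c were at least 3.61-fold, 3.28-fold and 3.15-fold lower. These are not limits within a tumour. Cfd, the adipocyte product adipsin, had 1 UMI in carriers, against 1458 in other fibroblasts (-5.81 ± 0.67, edgeR adjusted p = 1.8e-06; lost with DESeq2, 0.15). Of the 7 epithelial genes 3 fell, Krt8, Krt18 and Krt19, by 1.35 to 1.73, and of the 4 mesothelial genes tested 3 fell, Nkain4, Upk1b and Msln, by 1.60 to 3.40. Of these the calls of Krt19, Nkain4, Upk1b and Msln were lost with DESeq2, and that of Acta2 without tumour 3. Srgn, a granule proteoglycan, rose by 1.19 ± 0.25, alone of the 3 haematopoietic genes tested. Cd7 (-0.76 ± 0.52, adjusted p = 0.7) and Trem2 (-0.23 ± 0.31, adjusted p = 0.89) did not pass. DESeq2 called 58 genes, and edgeR without the tumour as block 0, with 401 at an unadjusted p under 0.05.

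Likeness of other genes to each member was Pearson's r of log2(CPM + 1) over 14 class-by-tumour sums, which share tumours and depth, among 14508 genes. Mcpt1 was most like the intestinal genes Fabp2 (r = 0.946), Reg3b (0.945) and Cdh17 (0.926), and Mcpt2 most like Itih2 (0.954) and Papss2 (0.953). Mcpt8 was most like Scml4 (0.951), the stomach annexin Anxa10 (0.948) and Tm4sf4 (0.943). Trbc1 was most like Mroh3 (0.947), Slc9a2 (0.944) and Gm13203 (0.936), and Trbc2 like Ndufa7 (0.942), Hmga2 (0.935) and Rasgrf1 (0.925). Klra4 was most like Igf2bp1 (0.927), an oncofetal RNA-binding protein, Cdkn2a (0.905) and Vcpkmt (0.852). Cd7 was most like C1rb (0.992), Slpi (0.988) and 4932438H23Rik (0.988), Ear1 like Vat1l (0.99504), Crb2 (0.9945) and Slitrk4 (0.989), and Trem2 like Wt1 (0.981), Prg4 (0.979) and Fth1 (0.977). Tnfsf8 was most like Cxcl9 (0.898), Dpysl3 (0.890) and Ccdc8 (0.889). Between members, r was 0.908 for Mcpt1 and Mcpt2, 0.952 for Cd7 and Trem2, 0.949 for Cd7 and Ear1 and 0.934 for Ear1 and Trem2. The lowest was -0.476 for Trbc1 and Trem2. Members were chosen by counts in these same classes, so a high r between members high in the same class adds no separate evidence.

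In the authors' deposited table Cd7, Ear1 and Trem2 had their highest log2 fold change in cluster 9, at 6.22, 8.67 and 5.05. Mcpt1, Mcpt8 and Trbc1 had theirs in cluster 3 in the authors' deposited table, at 2.35, 4.16 and 3.22, while Mcpt2 had its highest in cluster 8 (1.88), followed by cluster 1 (1.80). Klra4 and Trbc2 were highest in cluster 10 of the authors' deposited table, at 2.01 and 1.71, and Tnfsf8 in cluster 4, at 4.45.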

How the data were processed

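Libraries of the 3 sorted tumours used the 10x 3' v2 kit, per the labels' protocols. Tools named in the submitters' processing notes, without roles, are Cell Ranger (2.1.1) and Seurat (3.0). Which genome build and annotation the submitters used is not stated there. As deposited, a single matrix holds raw UMI counts for all tumours, in which the barcode suffix gives the tumour, per the labels. The authors' deposited cluster table lists, per the file headers, log2 fold changes with their adjusted p-values; these were copied without a test.

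Barcodes with under 500 genes or over 20% mitochondrial counts were left out, as were 74, 94 and 144 Scrublet doublets (scanpy 1.11.5, automatic thresholds). Cells with the pairs of 2 or more classes were left out, save that mesothelial cells could carry the fibroblast pair. The plan had asked for exactly 1 class, which would have left 11 mesothelial cells, so this departs from it. Counts were summed per tumour and class and tested with edgeR 4.0.16 (quasi-likelihood, TMM, filterByExpr, Benjamini-Hochberg at 0.05 over all genes tested), with the tumour as block because each tumour gives 1 sum to both sides. Class markers and Ptprc were left out of the class fits. Members were not left out of them, and their results in those fits are not given. Carrier splits used cells with at least 3000 UMIs, each thinned to 3000, and genes that define a split were left out of its fit. A standard error (SE) is the size of the log2 fold change divided by the root of F. Intervals and 3-count limits cover counting error only, and p-values measure the spread between these tumours.

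The members, lists and tests were chosen with earlier results of these data known. Genes were named as follows: list genes that passed, up to 4 a list, and each list's most abundant; the 12 highest and 12 lowest in the protease split and 5 and 5 in the other splits, with the same sign in 3 of 3 tumours; and the 3 most like genes. Other genes were named after their values were seen. A few genes that these rules name are not reported here. On simulated counts with 200 changed genes, the epithelial against mural fit (12471 genes) recovered 61% of changes of 1 and 97% of changes of 2 on the log2 scale, and the protease split (10299 genes) 77% and 95%. The simulation gave all genes the same spread and each tumour the same effect on both sides. It changed only genes above a limit on expected counts. Recovery in the real data was not measured. Sequences are from RefSeq (GRCm38.p6) and GENCODE M21, matched by symbol; of 10 members 6 had a promoter. Alternatives were RLE scaling, no filter on low counts, no replicate block, DESeq2 1.42.0, each tumour left out, and other cell filters.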

Additional observations from a re-analysis of the deposited data

How the results depend on the processing

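With 1 of 3 tumours left out, which is a weak check, the mean levels in the class described ranged from 50.2 to 75.9 CPM for Mcpt1, 98.4 to 137 for Mcpt2, 107 to 216 for Mcpt8, 14.5 to 31.9 for Trbc1, 17.05 to 33.0 for Trbc2, 5.12 to 38.4 for Klra4 in fibroblasts, 218 to 443 for Cd7, 90.7 to 145 for Ear1, 15.7 to 20.3 for Tnfsf8 and 290 to 382 for Trem2. The mean moved by over 1.5 times without tumour 1 for Mcpt8 (107 CPM), without tumour 2 for Trbc1 (14.5), Trbc2 (17.05) and Klra4 (5.12), and without tumour 3 for Cd7 (218). Requiring 2 UMIs of each marker gave 16.8 CPM for Klra4 in fibroblasts, against 26.7 CPM. Without the replicate block (the pairing of both sums by tumour) edgeR called 3264 genes in epithelial against fibroblast cells, against 5141, and 0, 3, 0 and 2 in the splits by Mcpt, Trbc, Tnfsf8 and Trem2, against 246, 1140, 175 and 179. DESeq2 called 46, 528 and 58 in the splits by Mcpt, Trbc and Tnfsf8. Without a filter on low counts the splits by Mcpt and Trem2 gave 451 and 422 calls, and 5000 UMIs per cell gave 127 in the split by Mcpt. With 1 tumour left out the calls ranged from 3876 to 4963 for epithelial against mural, 3419 to 5509 against fibroblast and 3593 to 5069 against mesothelial cells, and from 158 to 423, 858 to 1125, 150 to 165 and 100 to 617 for the splits by Mcpt, Trbc, Tnfsf8 and Trem2. The cause was not tested. Of 2085 values of named genes under alternatives, 1875 kept their side of the threshold, 203 lost their call, 97 of them without the block, and 7 gained one. Of the values called in the main or the alternative fit, 0 reversed direction. Direction was not followed for values called in neither. Mesothelial sums rest on as few as 61 cells and limit what those comparisons can show.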
